A study of Mus musculus with 9 samples.

Results

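Proteasome subunits and the proteins that assemble or activate the proteasome were followed in the dentate gyrus of adult mice as the genes whose symbol is Psm, a letter from a to g and a number. The rule found 50 of the 23988 symbols that both deposited tables share. Of these, 49 encode parts or helpers of the proteasome, and the remaining one, Psmc3ip, encodes a recombination cofactor that took its name from binding Psmc3 and is no subunit. RNA came from the microdissected dentate gyrus of individual C57BL/6 mice, 8 weeks old, with 3 mice per group, called E0, E1 and E4. This series concerns neuronal activation, and its labels name no stimulus and no unit for the digit that follows E. As background from the study, E0 is unstimulated and E1 and E4 are 1 h and 4 h after electroconvulsive stimulation, and the series title marks the mice as WT.

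The proteasome is the barrel-shaped protease that breaks down proteins tagged with ubiquitin. Its core particle stacks rings of alpha subunits, which gate the pore, on rings of beta subunits, some of which cut peptide bonds. A regulatory particle sits on the end, made of a base with a ring of ATPases that unfold the substrate and a lid that removes the ubiquitin chain. In neurons the proteasome turns over synaptic proteins and is needed for lasting forms of plasticity, and cells that lack proteasome activity raise the transcripts of most subunits together through the transcription factor Nfe2l1.

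The values are those of the authors' pair of comparisons, which set E1 and E4 each against E0. For every gene they hold a normalised count averaged over the libraries of a comparison, the log2 fold change, the standard error of that change (SE), and the p adjusted over genes. No value per mouse was used here, so errors are the authors' SE. A gene is called raised or lowered where the authors' adjusted p is below 0.05. Steps that single reads leave in the mean counts place the libraries at about 6140000 to 10960000 reads in genes for E0, 1940000 to 4760000 for E1 and 10020000 to 13550000 for E4, so E1 is the least precise. Both tables rest on the same E0 libraries, so a likeness between them can come from E0 alone. Members called at both times are named as such, but a call in one table is not taken as support for the call in the other. Because tissue was sequenced in bulk, fewer cells of a type and less RNA per cell cannot be told apart. Granule neuron markers were well read, with mean counts of 266.8 to 3323 over 10 genes (E4, the authors' deposited table), so the defining markers of the labelled tissue were present.

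The promoters of a few members are shown for reference beside their responses: Psma5 and Psmd12, subunits with some of the larger rises in E4, Psme4, raised at both times, and Psme1 and Psme2, the only members lowered in E4. Each run is 5′ to 3′ from 250 bases before to 50 after the start that RefSeq gives on GRCm38.p6. They lie at chr3:108256676-108256975 (plus strand), chr11:107479278-107479577 (plus), chr11:30771525-30771824 (plus), chr14:55578244-55578543 (plus) and chr14:55591052-55591351 (minus), in the order given. Psme2 has a second start in the table, and its more upstream one is shown. Capitals mark matches, on either strand, to ACGTCA (the core of a cAMP response element), to TGACNNNGC (the core of an antioxidant response element, which Nfe2l1 and Nfe2l2 bind), to GAAA, any pair of bases and GAAA again (the core of an interferon-stimulated response element), to the AP-1 site TGACTCA, to CCAAT or to TTCNNNGAA (a gamma-activated site).
Psma5: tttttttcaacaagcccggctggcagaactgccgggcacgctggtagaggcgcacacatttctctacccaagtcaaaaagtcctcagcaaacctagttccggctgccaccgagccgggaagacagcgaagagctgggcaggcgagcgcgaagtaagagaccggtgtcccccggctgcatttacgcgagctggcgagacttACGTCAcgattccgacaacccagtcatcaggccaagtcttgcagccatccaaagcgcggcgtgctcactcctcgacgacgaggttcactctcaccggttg
Psmd12: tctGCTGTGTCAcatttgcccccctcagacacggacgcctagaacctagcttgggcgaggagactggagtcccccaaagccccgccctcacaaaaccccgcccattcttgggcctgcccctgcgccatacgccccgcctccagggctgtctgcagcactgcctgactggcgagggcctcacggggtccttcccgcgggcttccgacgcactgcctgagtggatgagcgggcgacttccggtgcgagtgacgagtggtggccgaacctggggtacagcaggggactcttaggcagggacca
Psme4: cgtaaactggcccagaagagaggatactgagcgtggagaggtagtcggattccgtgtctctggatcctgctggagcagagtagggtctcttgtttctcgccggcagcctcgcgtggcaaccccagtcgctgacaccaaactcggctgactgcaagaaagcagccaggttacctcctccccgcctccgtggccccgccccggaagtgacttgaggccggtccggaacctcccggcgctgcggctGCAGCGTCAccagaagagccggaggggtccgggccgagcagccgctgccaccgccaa
Psme1: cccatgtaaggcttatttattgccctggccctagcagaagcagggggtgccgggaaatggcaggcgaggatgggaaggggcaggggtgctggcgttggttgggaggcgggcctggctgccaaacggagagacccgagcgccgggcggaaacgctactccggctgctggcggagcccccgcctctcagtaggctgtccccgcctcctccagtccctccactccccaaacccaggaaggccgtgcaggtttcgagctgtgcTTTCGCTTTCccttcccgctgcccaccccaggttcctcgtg
Psme2: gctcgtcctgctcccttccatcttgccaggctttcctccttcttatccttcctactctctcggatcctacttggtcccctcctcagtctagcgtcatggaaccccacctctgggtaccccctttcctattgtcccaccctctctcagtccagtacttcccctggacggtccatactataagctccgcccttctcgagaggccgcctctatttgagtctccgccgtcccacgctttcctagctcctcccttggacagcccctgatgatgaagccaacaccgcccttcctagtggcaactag

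Of the 50 members, 42 have a promoter in the table, among them 28 raised in E4. The antioxidant response element core was in 4 of the 28 (Psmb6, Psmc6, Psmd12 and Psme4), beside 14% of 27025 genes. In Psmd12 the match begins 247 bases before the start, and in Psme4 it begins 7 bases before it. The cAMP response element core was in 3 of the 28 (Psma1, Psma5 and Psmd8), beside 8.37% of genes, and in Psma5 it begins 50 bases before the start. CCAAT was in 11 of the 28, beside 41.1%, and the AP-1 site in 0 of the 28, beside 5.95%. The interferon-stimulated response element core, added to the search after the expression values were seen, was in 3 of the 28 and in Psme1 but not in Psme2, beside 3.99% of genes, and TTCNNNGAA, also added then, was in 1 of the 28, beside 9.55%. A match in such a window is not a binding site. The raised members whose promoters are shown each carry an antioxidant or cAMP response element core, unlike most of the 28. Psmd6 rose more than Psma5 and Psmd12, had no match to any of these sequences and is not shown.

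Levels per length differed between the classes. They are given as mean normalised counts (E4, the authors' deposited table) per kb of 1 annotated transcript a gene. The 31 constitutive subunits of core, base and lid spanned 195.0 (Psmd11) to 1148 (Psma7), a ratio of 5.89, with a median of 670.8. Class medians were 650.2 for the alpha ring with Psma8, 911.7 for the constitutive beta ring, 799.7 for the base ATPases and 487.2 for the lid. The helpers that build the particle and are not kept in it lay lower and close together, at 74.87 to 97.05 for the base chaperones Psmd5, Psmd9 and Psmd10 and 94.21 to 127.8 for the core chaperones Psmg1 to Psmg4. Of the catalytic subunits, Psmb5 stood at 653.9, Psmb6 at 911.7 and Psmb7 at 1099 counts per kb. Their inducible counterparts of the immunoproteasome, which immune cells build for antigen presentation, stood at 9.19 for Psmb8 (in place of Psmb5), 3.25 for Psmb9 (in place of Psmb6) and 92.39 for Psmb10 (in place of Psmb7). The testis form Psma8 was at 0.845 and the thymus form Psmb11 at 0.561 counts per kb, so both were hardly read.

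**Figure D1:**
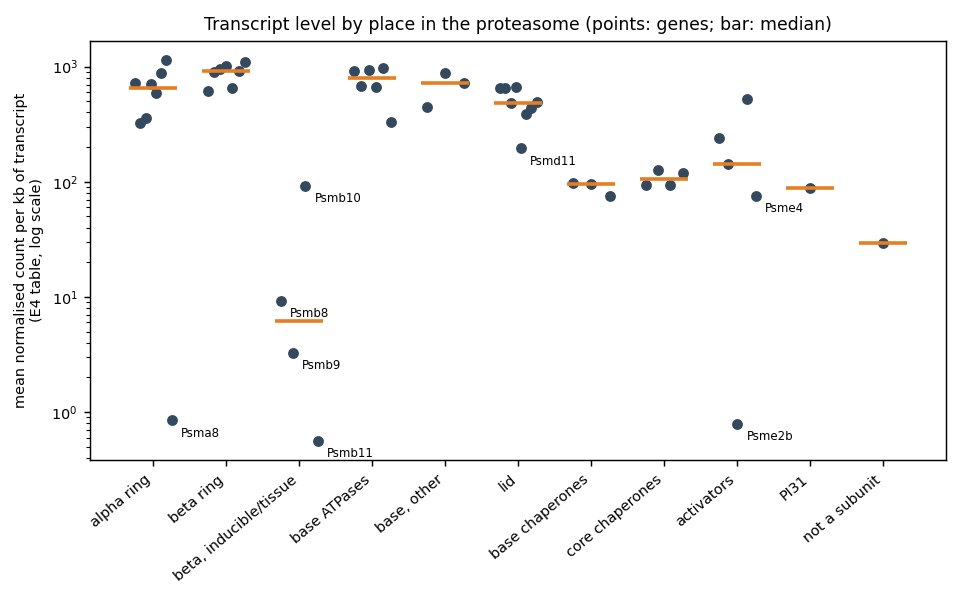
Mean normalised count per kb of transcript in the E4 table (log axis) for each of the 50 genes, by place in the proteasome, with the class median as a bar. The constitutive subunits lie between 195.0 and 1148, while Psma8, Psmb11 and Psme2b lie below 1.

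Against E0, the later time point E4 showed a broad rise. Nearly the whole constitutive proteasome was raised, by 17.3% (Psmd4) to 69.8% (Psmb2) where called. Of 46 members tested, 31 were raised and 2 lowered, where 39% of all genes tested were called, 20.7% of the 14455 raised and 18.3% lowered. For the 31 constitutive subunits it was 27 raised and 0 lowered, with 4 not called (0 lowered also at an unadjusted p below 0.05). Well-read genes are called more often, so a second background was taken: of 5341 genes averaging 382.3 counts or more, 58.7% were called, 36.3% raised and 22.4% lowered. Of the 31 subunits 30 had a log2 fold change above 0, and their median was 0.38, a rise of 30.2%, beside a median of 0.11 over those 5341 genes and -0.01 over all genes tested in both tables. With the dependence on length and GC removed their median was 0.38 as well.

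**Figure D2:**
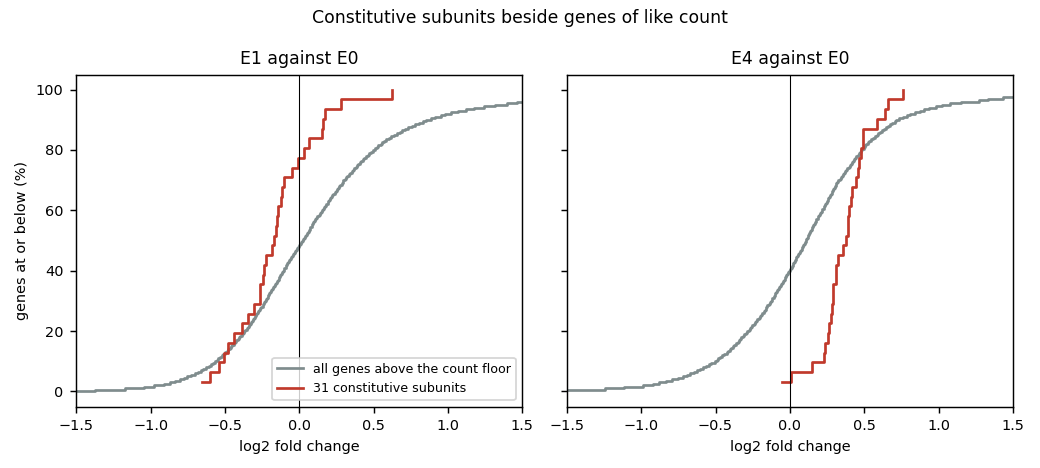
Share of genes (y axis, percent) at or below each log2 fold change (x axis) for the 31 constitutive subunits and for all genes averaging 169.3 (E1 table) or 382.3 (E4 table) counts or more. In E4 the curve of the subunits is steeper, with 30 of 31 above 0, and lies to the right except in its upper part. In E1 it lies to the left except at its lower end, with 7 of 31 above 0.

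All 7 alpha subunits with an adjusted p were raised in E4. Psma5 led, at a log2 fold change of 0.64 ± 0.10 (SE) in the authors' deposited table (adjusted p = 8.49e-09), which with its mean count of 729.9 corresponds to 570.1 normalised counts in E0 and 889.7 in E4. The others lay between 0.28 ± 0.11 for Psma4 and 0.46 ± 0.10 for Psma3 in the authors' deposited table, with Psma1 at 0.38, Psma2 at 0.41, Psma6 at 0.35 and Psma7 at 0.39. Values in this ring thus ran from 0.28 to 0.64. Psma8 had too few reads for an adjusted p.

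Of the 7 constitutive beta subunits 5 were raised in E4, and values in this ring ran from -0.05 to 0.76. Psmb2, a subunit without catalytic activity, had the largest rise of any member, 0.76 ± 0.10 in the authors' deposited table (adjusted p = 1.97e-12), a change of 69.8% from 568.6 to 965.6 fitted normalised counts. Psmb3 followed at 0.49 ± 0.11, then the caspase-like Psmb6 at 0.32 ± 0.10, Psmb4 at 0.31 ± 0.10 and the trypsin-like Psmb7 at 0.28 ± 0.09 in the authors' deposited table. Exons of Psmb7 share 405 bases with Nek6 on the other strand (log2 fold change 0.30 in the authors' deposited table), and the strand setting of the counting is not stated. The chymotrypsin-like subunit Psmb5 was not called, at 0.15 ± 0.11 in the authors' deposited table (adjusted p = 0.312), with a 95% interval of -0.07 to 0.36. Psmb1 was not called either, at -0.05 ± 0.09 in the authors' deposited table (adjusted p = 0.702), with an interval of -0.24 to 0.13 that leaves out the median of the constitutive subunits.

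In the base, 5 of 6 ATPases and all 3 other subunits were raised in E4. Psmc1 stood at 0.49 ± 0.09 in the authors' deposited table (adjusted p = 3.27e-07), Psmc4 at 0.47 ± 0.10, Psmc6 at 0.40 ± 0.11, Psmc2 at 0.39 ± 0.10 and Psmc5 at 0.31 ± 0.10. Psmc3 was the exception, at 0.01 ± 0.09 in the authors' deposited table (adjusted p = 0.959), with a 95% interval of -0.17 to 0.18. Its exons share 215 bases with the less read Slc39a13 on the other strand, which averaged 129.0 counts beside 1517 for Psmc3 and stood at -0.72 in the authors' deposited table. The scaffold subunits of the base that receive ubiquitin-like domains and substrates, Psmd2 and Psmd1, were raised by 0.45 ± 0.08 and 0.42 ± 0.09 in the authors' deposited table, and the ubiquitin receptor Psmd4 by 0.23 ± 0.09 (adjusted p = 0.037).

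In the lid 7 of 8 subunits were raised in E4. Psmd6 led at 0.66 ± 0.11 in the authors' deposited table (adjusted p = 6.41e-09), a change of 57.9%, with Psmd12 at 0.59 ± 0.10 and Psmd13 at 0.48 ± 0.10. The remaining raised ones lay close together, Psmd3 at 0.29 ± 0.09, Psmd14, the deubiquitinase of the lid, at 0.29 ± 0.10, Psmd11 at 0.26 ± 0.11 and Psmd8 at 0.26 ± 0.10 in the authors' deposited table. Psmd7, the partner of Psmd14, had a like value of 0.24 ± 0.11 but missed the threshold (adjusted p = 0.075 in the authors' deposited table). Psmd13 shares 342 exon bases with Sirt3 on the other strand, and Sirt3 stood at -0.62 in the authors' deposited table.

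**Figure D3:**
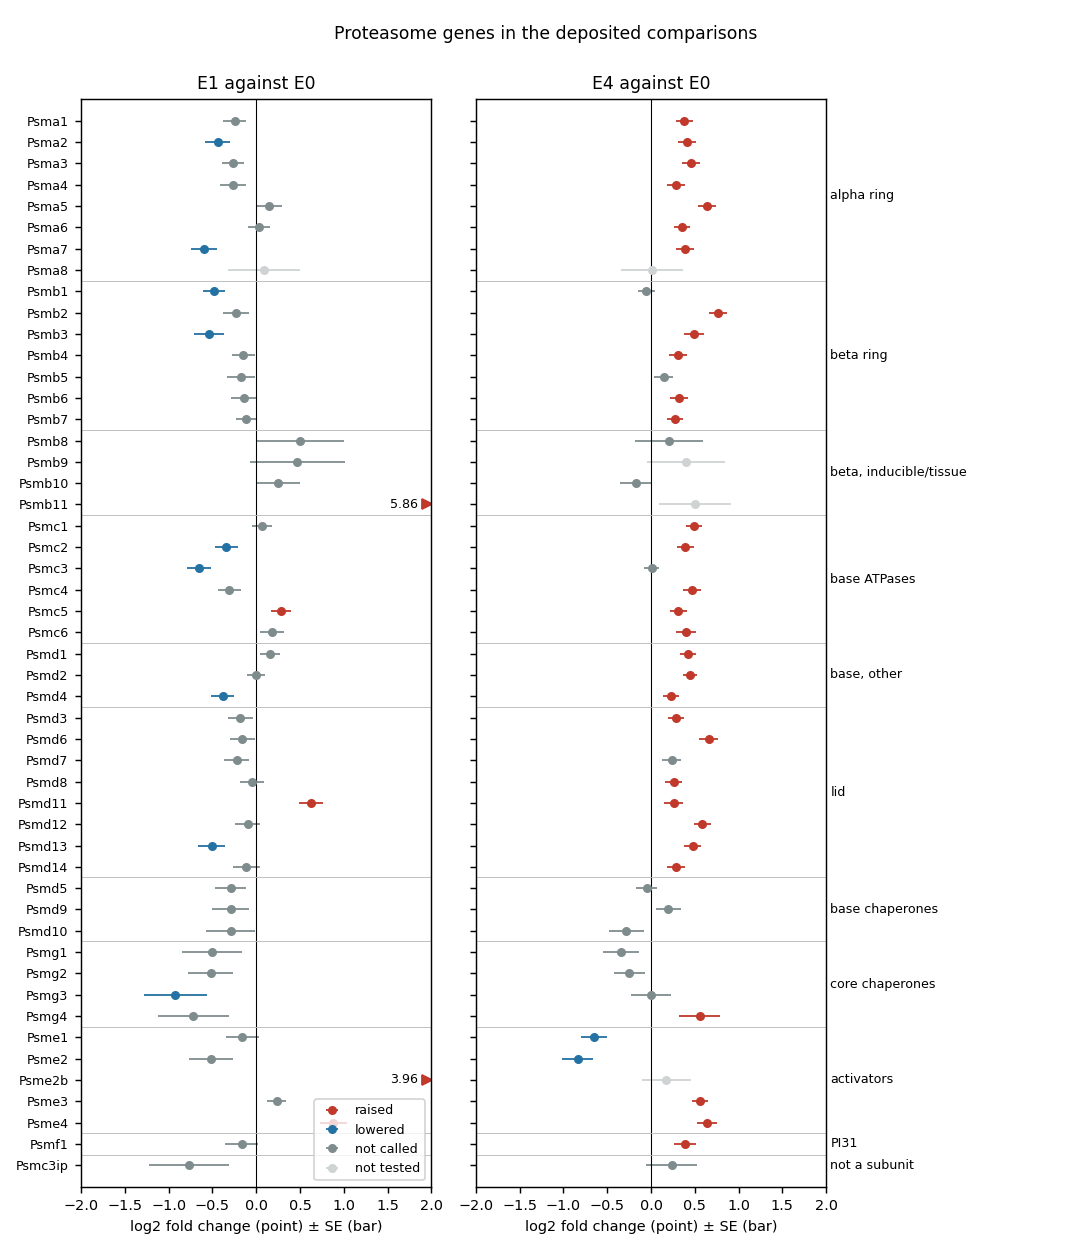
Log2 fold change (point) with its SE (bar) of all 50 genes in E1 and in E4 against E0, grouped by place in the proteasome and coloured by the authors' adjusted p (grey, not called; light grey, no adjusted p). Psmb11 at 5.86 and Psme2b at 3.96 in E1 lie beyond the axis and are marked by arrows. In E4 most points of the alpha ring, base and lid are raised, apart from Psma8, Psmc3 and Psmd7, and Psme1 and Psme2 stand on the left.

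Of the assembly chaperones, 1 of 7 was raised in E4, where 20.7% of all genes tested were raised, so this share is near the background. Psmg4, which with Psmg3 helps to form the alpha ring, was raised, with 0.56 ± 0.23 in the authors' deposited table, from a mean count of only 66.05 and with an adjusted p of 0.0462. Psmg3 stood at 0.00 ± 0.23, Psmg1 at -0.34 ± 0.20 and Psmg2 at -0.25 ± 0.17, and the base chaperones Psmd5 at -0.05 ± 0.12, Psmd9 at 0.20 ± 0.14 and Psmd10 at -0.28 ± 0.20, none called in the authors' deposited table. Whether this class differs from the subunits was not tested; its genes are less read and their SEs wider.

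Of the activators, caps that can replace the regulatory particle, 2 were raised and 2 lowered in E4. Psme2b, also in this class, had no adjusted p there. Over all genes tested 20.7% were raised and 18.3% lowered, and over well-read genes 36.3% and 22.4%. Psme3, whose product forms the nuclear cap, was raised, with 0.56 ± 0.09 in the authors' deposited table (adjusted p = 5.23e-09), and Psme4, a large single-chain nuclear cap, at 0.64 ± 0.12 (adjusted p = 2.13e-07). Psme1 and Psme2, which together form the interferon-inducible cap that works with the immunoproteasome, were lowered: Psme1 at -0.65 ± 0.15 and Psme2 at -0.84 ± 0.18 in the authors' deposited table (adjusted p = 0.000114 and 1.66e-05). In fitted normalised counts Psme1 went from 326.7 to 207.9 and Psme2 from 176.6 to 98.70. Psmf1, an inhibitor and adaptor of the core particle, was raised, with 0.39 ± 0.13 in the authors' deposited table (adjusted p = 0.00889). Psmc3ip was not called, at 0.24 ± 0.29 in the authors' deposited table.

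The inducible beta subunits were not called in E4, and their SEs are wide. Psmb10 stood at -0.17 ± 0.19 and Psmb8 at 0.20 ± 0.39 in the authors' deposited table, where it averaged 14.96 counts. Psmb9, at 0.40 ± 0.44 in the authors' deposited table, where it averaged 4.40 counts, had no adjusted p, and its exons share 212 bases with Tap1 on the other strand. The 95% intervals were -0.53 to 0.19 for Psmb10 and -0.56 to 0.96 for Psmb8.

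Because Psme1 and Psme2 respond to interferon, genes of antigen processing and the interferon response were read beside them. Of 18 with an adjusted p in E4, 4 were lowered and 1 raised, with a median of -0.24, where 39% of all genes tested were called and 18.3% lowered, so the share lowered is near the background. In E1 2 of 20 were raised, where 20.6% of all genes tested were raised, so this share is not above the background. They were the class I heavy chain H2-D1 at 1.80 ± 0.26 and the peptide-loading factor Tapbp at 1.02 ± 0.19 in the authors' deposited table. Neither was called in E4. Among those lowered in E4 were the interferon signalling factor Stat2 at -0.90 ± 0.16, Irf1, an interferon-induced factor, at -0.77 ± 0.24, and B2m, the light chain of class I molecules, at -0.27 ± 0.11 in the authors' deposited table (adjusted p = 2.2e-07, 0.0047 and 0.0442). Irf7 was raised, with 1.29 ± 0.41 in the authors' deposited table, where it averaged 13.22 counts. Among 14 markers of microglia, the resident immune cells of the brain, 2 were lowered, among them Csf1r at -0.33 ± 0.09 in the authors' deposited table, and the list's median was -0.04. The summed fitted level of the 14 was 5322 normalised counts in E0 and 4870 in E4, no marker was at 0, and the part of microglia in the fall of Psme1 and Psme2 was not tested. Granule neuron markers moved both ways in E4, with 4 of 10 raised and 6 lowered. Their median was -0.85, with summed fitted levels of 23415 in E0 and 20117 in E4. Over all genes tested, 20.7% were raised and 18.3% lowered. Interneuron and astrocyte markers had 2 and 1 of 10 raised, near or below that share, with medians of -0.24 and -0.08. The medians of endothelium and oligodendrocyte markers were 0.04 and -0.06. The part of these cell types in the rise of the subunits was not tested.

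Genes that work with the proteasome moved in part. Of 6 cofactors without a Psm symbol, 2 were raised and 1 lowered in E4, where 20.7% of all genes tested were raised and 18.3% lowered. Of well-read genes 36.3% were raised and 22.4% lowered, so the shares in this short list are near the background. The deubiquitinase Usp14 stood at 0.57 ± 0.09 and the ubiquitin receptor Adrm1 at 0.41 ± 0.11, while Uchl5, a deubiquitinase that binds Adrm1, was lowered, with -0.41 ± 0.16 in the authors' deposited table. Usp14 shares 2169 exon bases with Thoc1 on the other strand, which stood at 0.62 in the authors' deposited table. Pomp, which assists core maturation, was at 0.01 ± 0.11 and not called in the authors' deposited table. Of 5 genes that control subunit transcription 1 was raised, a share near that of all genes tested. It was Ddi2, a protease that in human cells cuts Nfe2l1 into its active form, at 1.28 ± 0.17 in the authors' deposited table (adjusted p = 4.57e-13). Ddi2 shares 1749 exon bases with Rsc1a1, which was hardly read (mean count 0.158 in the authors' deposited table). Nfe2l1 itself stood at 0.08 ± 0.09 and Nfe2l2 at -0.35 ± 0.18, both not called in the authors' deposited table.

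Among 15 genes with an adjusted p for ubiquitin activation, shuttling and extraction, 7 were raised in E4, beside 20.7% of all genes tested and 36.3% of those well read. They were the shuttle factors Rad23b at 0.57 ± 0.09 and Ubqln1 at 0.42 ± 0.09, Akirin2, needed in human cells to bring proteasomes into the nucleus, at 0.51 ± 0.12, Txnl1 at 0.46 ± 0.11 and Nploc4, a cofactor of the segregase Vcp, at 0.43 ± 0.10 in the authors' deposited table. The ubiquitin-activating enzyme Uba1 at 0.41 ± 0.11 and Zfand2a at 0.40 ± 0.11 completed them in the authors' deposited table. None of the 4 ubiquitin genes was called, with Ubb at -0.23 and Rps27a at 0.16 in the authors' deposited table.

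**Figure D4:**
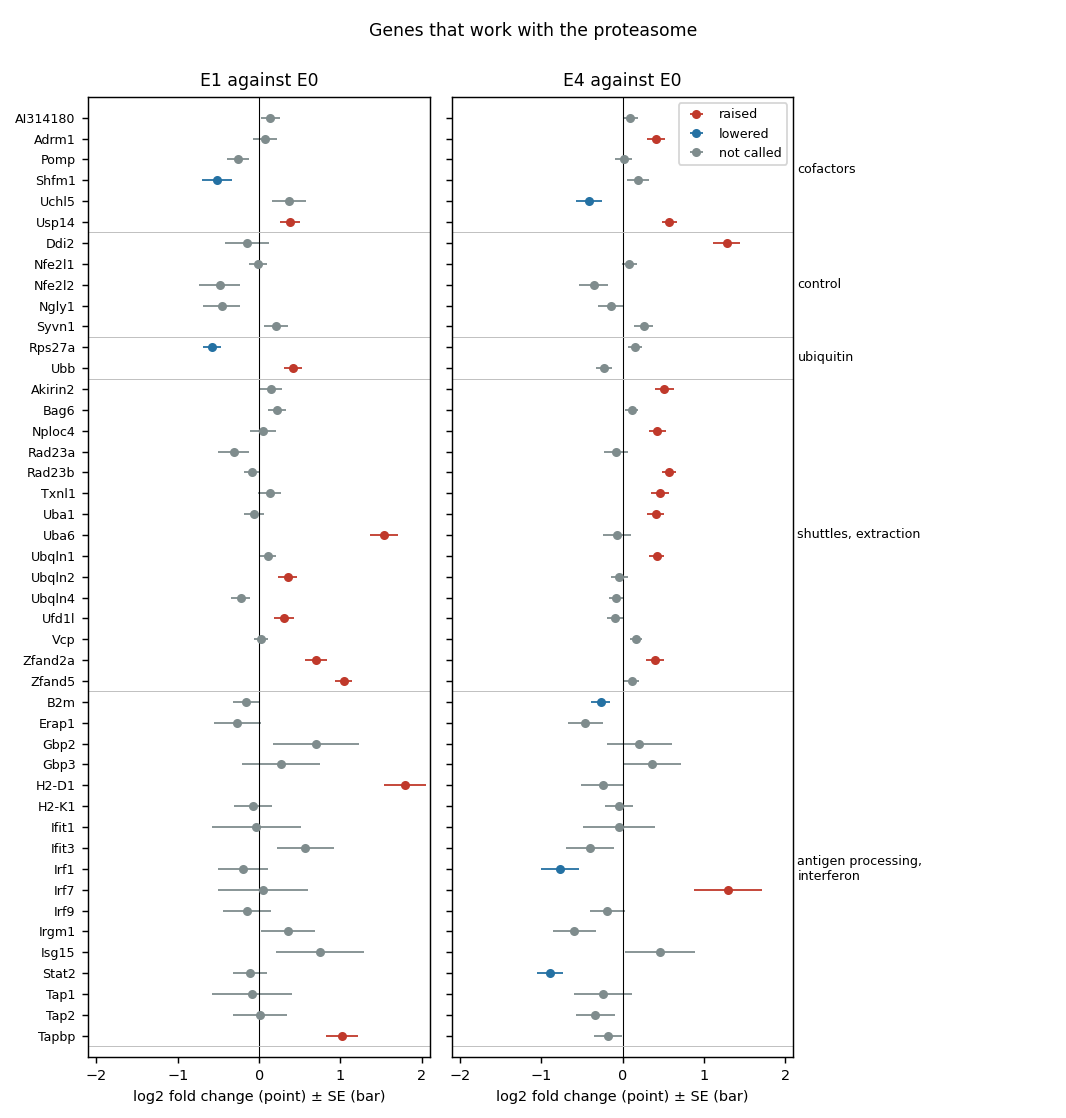
Log2 fold change (point) with its SE (bar) in E1 and E4 against E0 of the genes that work with the proteasome and of antigen processing and interferon response genes, for most of those with an adjusted p in E4. Uba6 and Zfand5 are raised in E1, Ddi2, Usp14 and Rad23b in E4, and Stat2 and Irf1 are lowered in E4.

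At the earlier time point E1 the subunits showed no such rise over E0. Of 49 members tested, 5 were raised and 9 lowered, where 35.5% of all 15660 genes tested were called, 20.6% raised and 15% lowered. For the 31 constitutive subunits the count was 2 raised and 8 lowered, beside 51.2% called, 28.3% raised and 22.9% lowered of 6006 genes averaging 169.3 counts or more, so the share lowered is near that of genes read as well. Their median log2 fold change was -0.17, beside 0.02 over those 6006 genes, and 24 of 31 were below 0. With the dependence on length and GC of the transcript removed, the median of the 31 was -0.10.

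The subunits lowered in E1 came from every part of the particle. In the core they were Psma7 at -0.60 ± 0.15, Psma2 at -0.44 ± 0.14, Psmb3 at -0.54 ± 0.17 and Psmb1 at -0.48 ± 0.12 in the authors' deposited table. In the base and lid they were Psmc3 at -0.66 ± 0.14 (adjusted p = 1.26e-05), Psmd13 at -0.51 ± 0.15, Psmd4 at -0.38 ± 0.13 and Psmc2 at -0.34 ± 0.13 in the authors' deposited table. The core chaperone Psmg3 was lowered, with -0.93 ± 0.36 in the authors' deposited table, where it averaged 33.11 counts. Psmc3 and Psmb1 were thus lowered in E1 and not called in E4. With that dependence removed, Psmb3 (-0.28, adjusted p = 0.218), Psmc2 (-0.25, 0.124), Psmd4 (-0.19, 0.278) and Psmg3 (-0.68, 0.134) were no longer called.

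A few members were raised in E1. Psme4 was raised by 0.88 ± 0.15 in the authors' deposited table (adjusted p = 1.17e-07), a change of 84.0%, from 201.4 to 370.7 fitted normalised counts, and it was the member raised most among those well read. Psmd11, a lid subunit that contacts the core, was raised by 0.62 ± 0.14 (adjusted p = 4.06e-05) and the ATPase Psmc5, which calcium/calmodulin-dependent kinase phosphorylates in neurons, by 0.28 ± 0.11 (adjusted p = 0.0408) in the authors' deposited table. These 3 were called raised in E4 too. Psme3 was not called in E1, at 0.24 ± 0.11 in the authors' deposited table (adjusted p = 0.0801).

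The other raised members, Psmb11 and Psme2b, had few reads outside the E1 comparison. Psmb11, a subunit of thymic epithelium, stood at 5.86 ± 0.42 with 70.09 mean counts for E1 (the authors' deposited table), but only 2.38 for E4. Psme2b stood at 3.96 ± 0.51 with 15.3 mean counts for E1 (the authors' deposited table) and 0.662 for E4. Its transcript is 99.4% identical to that of Psme2 over 794 bases, so reads could be split between them, which was not tested. Psme2 itself was not called in E1 (-0.52 ± 0.25, adjusted p = 0.0997, in the authors' deposited table). In all, 220 genes raised in E1 averaged 10 counts or more in the table for E1 and under 5 in that for E4, and these 2 members are among them.

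The remaining members were not called in E1. In the core, Psma1, Psma3 and Psma4 lay at -0.25 to -0.27, Psma5 at 0.15, Psma6 at 0.03, and Psmb2, Psmb4, Psmb5, Psmb6 and Psmb7 at -0.12 to -0.24 in the authors' deposited table. In the base Psmc1, Psmc4 and Psmc6 lay at 0.07, -0.31 and 0.18 and Psmd1 and Psmd2 at 0.16 and -0.01, and in the lid Psmd3, Psmd6, Psmd7, Psmd8, Psmd12 and Psmd14 lay at -0.05 to -0.22 in the authors' deposited table. The chaperones Psmd5, Psmd9 and Psmd10 were all at -0.29, and Psmg1, Psmg2 and Psmg4 at -0.51, -0.52 and -0.72 in the authors' deposited table. Psme1 stood at -0.16, Psmf1 at -0.17, Psmc3ip at -0.77, and the inducible Psmb8, Psmb9 and Psmb10 at 0.50, 0.47 and 0.25 with SEs of 0.49, 0.55 and 0.25 in the authors' deposited table.

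Around the proteasome, 2 of 4 ubiquitin genes were raised and 2 lowered in E1, beside 28.3% of well-read genes raised and 22.9% lowered. Ubb, a polyubiquitin gene, was raised by 0.42 ± 0.11, while Rps27a, which encodes ubiquitin fused to a ribosomal protein, stood at -0.58 ± 0.11 and was lowered in the authors' deposited table. Of 15 genes of ubiquitin activation, shuttling and extraction 5 were raised, a share near the 28.3% of well-read genes, among them the activating enzyme Uba6 at 1.53 ± 0.18, Zfand5, which binds the proteasome and stimulates it, at 1.04 ± 0.10, and the stress-inducible Zfand2a at 0.70 ± 0.13 in the authors' deposited table. Ubqln2 at 0.35 ± 0.12 and Ufd1l at 0.30 ± 0.13 completed them in the authors' deposited table. Of the cofactors, Usp14 was raised at 0.38 ± 0.13 and Shfm1, the small lid subunit without a Psm symbol, lowered at -0.52 ± 0.19 in the authors' deposited table. None of the 5 transcriptional control genes was called. Cell type markers also differed in E1, where 20.6% of all genes tested were raised and 15% lowered. For granule neurons 8 of 10 were lowered and 1 raised, with a median of -0.68 and summed fitted levels of 12370 normalised counts in E0 and 7753 in E1. Oligodendrocyte markers had 1 raised and 2 lowered of 10. Of 10 each, 5 of endothelium and 7 of interneurons were raised and 7 of astrocytes lowered, and 5 of 14 of microglia were lowered, with medians of 0.92, 0.93, -0.50 and -0.40. Their summed fitted levels in E0 and E1 were 799.1 and 1730 normalised counts for endothelium, 2755 and 4748 for interneurons, 34416 and 30753 for astrocytes and 2807 and 2035 for microglia, no marker was at 0, and their part in the changes of proteasome genes was not tested.

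The change between both times was tested as the difference of the log2 fold changes, E4 minus E1, over the root of their summed squared SEs, with a two-sided normal p, Benjamini-Hochberg adjusted over the 12769 genes averaging 10 or more counts in each table. Of 45 members tested, 25 were higher in E4 than in E1 and 0 lower, where 36.7% of all genes tested were called, 17.7% higher and 19% lower. At an unadjusted p below 0.05 it was 29 higher and 2 lower. Among the 31 constitutive subunits 23 were higher, beside 27.1% higher, 19.3% lower and 46.4% in all of 5234 genes past the count floors given above in both tables. The median difference of the subunits was 0.47, against 0.01 over all genes tested. Over genes past the count floor of E4 the median was 0.11, and over genes past that of E1 it was 0.03.

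The beta subunits Psmb3 and Psmb2 differed most among well-read members, by 1.03 ± 0.20 (adjusted p = 4.65e-06) and 1.0004 ± 0.18 (adjusted p = 3.91e-07) by this test. Psma7 at 0.99 ± 0.18 and Psmd13 at 0.98 ± 0.18 came next. Psmg4 had the largest value, 1.28 ± 0.47 (adjusted p = 0.021), with a wide error, and was not called once the dependence on length and GC was removed (1.03, adjusted p = 0.0722). Psma5, Psmb4, Psmb6, Psmb7, Psmd3 and Psmd7 lost their calls there too. Lowered in E1 and raised in E4 were 6 members, Psma2, Psma7, Psmb3, Psmc2, Psmd4 and Psmd13, and for each of them the difference itself passed the test. Psmc3 (0.66 ± 0.16, adjusted p = 0.000296) and Psmb1 (0.43 ± 0.16, adjusted p = 0.0195), lowered in E1 and not called in E4, passed it as well. Psmg3, the third member lowered in E1 and not called in E4, did not (0.93 ± 0.43, adjusted p = 0.0731). Of the 6 members with opposite calls, Psmb3, Psmc2 and Psmd4 were not called lowered in E1 once that dependence was removed. Psmd4 also lost its call in E4 after centring on the median. The share of all genes with such opposite calls is not given here, so the count of 6 has no background.

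For members raised at both times the difference did not pass the test. It was -0.24 ± 0.19 for Psme4 (95% interval -0.61 to 0.14), 0.03 ± 0.15 for Psmc5 (-0.26 to 0.32) and -0.36 ± 0.18 for Psmd11 (-0.71 to -0.02, adjusted p = 0.0909). The falls of Psme1 and Psme2 were not shown to differ between the times by this test either, at -0.49 ± 0.24 (adjusted p = 0.102) and -0.32 ± 0.31 (adjusted p = 0.441). Its SE takes no account of the E0 libraries that both comparisons share. With the SE reduced for them, Psmd11 and Psme1 were called lower in E4, so their results depend on this setting. Ddi2 was higher in E4 by 1.43 ± 0.32 (adjusted p = 5.91e-05), and Zfand5 was lower, at -0.93 ± 0.14 (adjusted p = 2.51e-10).

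Other settings moved some of these counts. Against an absolute log2 fold change of at least 0.2, 12 members were called in E4, 10 of them raised, where 19.5% of all genes were called and 10.6% raised, and 6 were called in E1, 2 of them lowered, where 20.1% were called and 6.51% lowered. With length and GC removed, 32 members were raised in E4 (20.4% of all genes) and 6 lowered in E1 (13.9%), and 20 differed between the times, 1 of them lower (35.8% and 18.4%). At an adjusted p below 0.01, 15 members differed between the times, where 27.3% of all genes did. Reducing the SE of the difference for the shared E0 gave 33 members, 2 of them lower (48.1% and 24.6%). Centring left 27 raised in E4 (19.5%), and no filter on low counts 29 (15.7%).

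**Figure D5:**
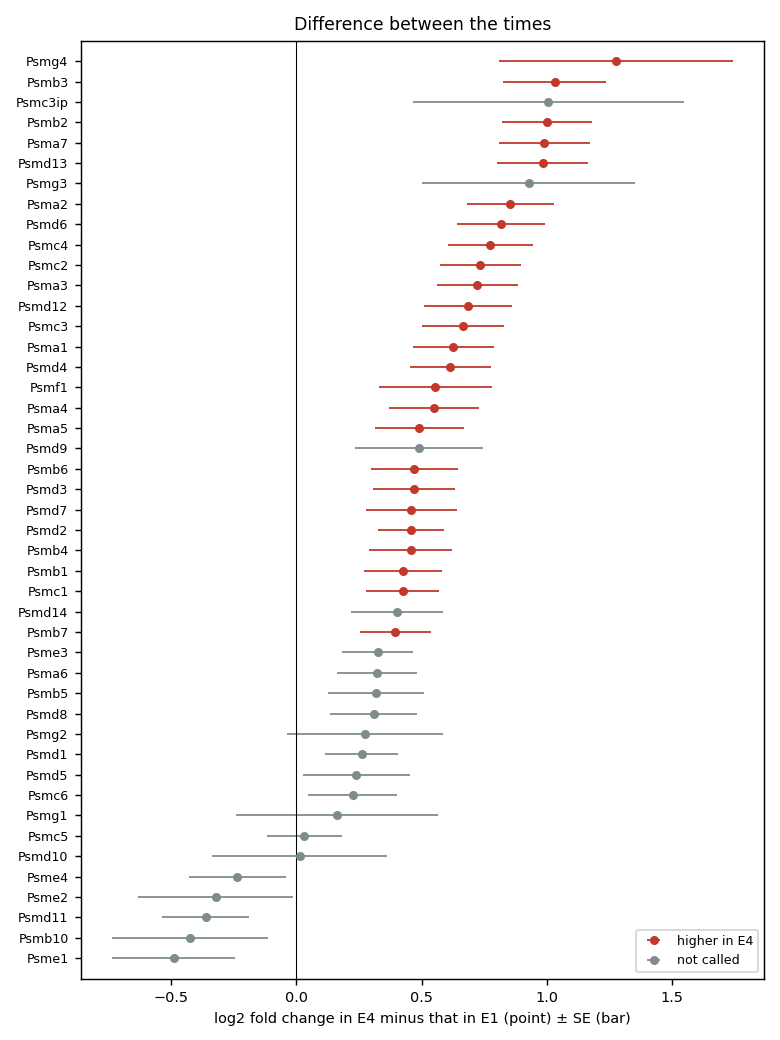
Log2 fold change in E4 minus that in E1 (point) with its SE (bar) for the 45 members averaging 10 counts or more in each table, in order of size. The 25 members in red passed the test, from 0.40 for Psmb7 to 1.28 for Psmg4, and no member passed it on the negative side.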

How the data were processed

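RNA-seq was analysed in 9 libraries, 3 each of E0, E1 and E4, through 2 tables of the authors' comparisons. The submitters' processing notes name TopHat2, DESeq2 and the build mm9. Not given in the sources used here: versions, counter, annotation and strand setting. The deposited signal column is the mean of counts divided by size factors over a comparison's libraries, per the file headers. The deposited log2 fold change and its SE are the authors' estimates, the deposited score is the estimate over its SE, and a two-sided normal p of that score matched the deposited p-value to within 6.44e-08. Fold changes of rarely read genes appear shrunken toward 0. No counts per library were used, so no count test was run. All p-values rest on the authors' SEs, which come from these 3 mice per group only.

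Groups came from the sample titles. Each table lists 24015 genes, 15660 (E1) and 14455 (E4) with an adjusted p; 27 symbols turned into dates in the E1 table were left out when both were joined. That both use the same E0 libraries was checked from the fitted E0 level of 5385 genes, whose log2 ratio between tables had an interquartile range of 0.00923. Fitted levels were computed from the mean count and the log2 fold change, each within its own table. Lengths, GC content and overlaps come from GENCODE M21 on GRCm38 and promoters from RefSeq; the tables were made on mm9, so no coordinates were joined. Depths are approximate. The difference test and trend removal were tested on simulated data. Python 3.11.15 with numpy 2.4.6, pandas 2.3.3 and scipy 1.17.1 was used. Members and lists were chosen with earlier results of these data known. Every member is named, and of the other lists the called genes with the smallest adjusted p, up to 4 a list, with a few others chosen after their values were seen; a few genes of these lists are not reported here.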

Additional observations from a re-analysis of the deposited data

Results flagged for a closer look

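Responses at both times differed, by the test of the difference itself, for 25 members, each with a higher log2 fold change in E4 than in E1. In the alpha ring the differences (E4 minus E1, log2) were 0.99 for Psma7, 0.85 for Psma2, 0.72 for Psma3, 0.63 for Psma1, 0.55 for Psma4 and 0.49 for Psma5. For the beta ring they were 1.03 for Psmb3, 1.0004 for Psmb2, 0.47 for Psmb6, 0.46 for Psmb4, 0.43 for Psmb1 and 0.40 for Psmb7. Those of the base were 0.77 for Psmc4, 0.73 for Psmc2, 0.66 for Psmc3, 0.61 for Psmd4, 0.46 for Psmd2 and 0.42 for Psmc1. The lid had 0.98 for Psmd13, 0.82 for Psmd6, 0.69 for Psmd12, 0.47 for Psmd3 and 0.46 for Psmd7. Outside the particle the difference was 1.28 for Psmg4 and 0.55 for Psmf1. No sample could be examined alone, since the tables hold none.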

How the results depend on the processing

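No paired analysis was possible because the tables hold no value per library, and leaving out single mice was not possible for the same reason. Counts of members called against E0 stayed within 1.5 times under a threshold of 0.01, no filter on low counts, a mean count of at least 50 and centring on the median, and those of E4 against E1 under the last 2. At 0.01, added after seeing the data, 15 members differed between E4 and E1, all higher in E4, and no called member changed sign under any alternative. Against an absolute log2 fold change of at least 0.2 in place of 0, E4 had 12 called members, 10 raised, and E1 had 6, 2 of them lowered; this asks for a larger change. Removing the length and GC trend left 32 raised in E4, 6 lowered in E1, and, for E4 against E1 alone added after seeing the data, 20 called, of them 1 lower. With the SE of the difference reduced for the shared E0, 33 members differed, 2 of them lower in E4. Centring lost 4 rises in E4 (Psmd4, Psmd8, Psmd11 and Psmg4), and dropping the filter lost Psmd11 and Psmg4. Shallow E1 libraries limit what could be called there.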
